A study of Homo sapiens with 12 samples.

Results

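The comparison of siGOLM1-1, one of a pair of small interfering RNAs (siRNAs) against GOLM1, with a non-targeting control siRNA was examined in A549 cells, an established human lung adenocarcinoma line. It rests on 8 of the 12 RNA sequencing libraries of the series, 4 labelled siGOLM1-1 and 4 labelled Control, chosen by their titles. The other 4 libraries come from A549 cells given the second siRNA, siGOLM1-2, and were used to ask which changes were particular to siGOLM1-1. Each group received its siRNA at 50 nM by reverse transfection with a lipid reagent and was harvested after 72 h, and the labels call the 4 libraries of a group biological replicates. All groups share the parental line, the reagent and the medium, and no library of untransfected cells was used here. In total 17532 genes passed the count filter and were tested.

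GOLM1 encodes a type II membrane protein of the cis and medial Golgi that is also shed from cells, and it is raised in several epithelial cancers. An siRNA is loaded into the RNA-induced silencing complex and guides it to transcripts with a matching sequence. It can also act on transcripts that match only its seed, so agents against the same gene are usually compared with each other. A549 cells are known for a loss of KEAP1 function that leaves the transcription factor NRF2 active, which sets high basal levels of its target genes.

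Library totals ran from 41617042 to 71344718 counts, with siGOLM1-1 replicate 1 the deepest. The control libraries did not behave as 4 equal replicates. Replicates 1 and 2 lay apart from replicates 3 and 4, and siGOLM1-1 replicate 1 lay with control replicates 1 and 2 on the third principal component (9.66% of the variance). Fold changes are therefore given with each control pair, or without siGOLM1-1 replicate 1, where that ends a call or turns a direction, and the called fold changes it moves by over 1.5 times are collected after the results. On the same component siGOLM1-2 replicate 4 (-27.4) lay with control replicates 3 and 4 (-30.0 and -25.8). It was apart from siGOLM1-2 replicates 1 to 3 (7.45, 4.98 and 11.3). That library enters every comparison with siGOLM1-2. Mitochondrially encoded transcripts took 3.22% to 4.89% of the counts with siGOLM1-1 and 5.14% to 8.13% in the control. Their part in the results was not tested. The 6 epithelial markers looked for were all detected, although the keratins KRT8 (-1.03) and KRT18 (-1.06) fell on the log2 scale with siGOLM1-1. Of 17 immune, endothelial and fibroblast markers in the table, 10 stayed under 1 CPM (counts scaled to a common library size) in every library. PTPRC and CD3E were among them. The others passed 1 CPM in at least 1 library. COL1A1 was at 32.2 to 70.4 CPM in the control and 48.1 to 92.7 CPM with siGOLM1-1. THY1 was at 11.5 to 16.7 and 11.1 to 13.1 CPM, and the immune marker CD14 at 6.70 to 7.33 and 9.36 to 15.2 CPM. The epithelial marker EPCAM was lower than these, at 3.02 to 5.36 and 4.76 to 5.89 CPM. The summed level of all 17 was 56.4 to 100.4 CPM in the control and 82.8 to 125 CPM with siGOLM1-1.

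GOLM1 itself was at 372, 378, 371 and 345 CPM in control replicates 1 to 4 and at 38.9, 38.7, 38.8 and 37.5 CPM in siGOLM1-1 replicates 1 to 4. Every siGOLM1-1 library lay below every control library, and the siGOLM1-1 libraries hardly differed from each other (log2 change of -3.25 with SE 0.07, adjusted p = 4.97e-12 by edgeR's quasi-likelihood test with Benjamini-Hochberg adjustment, n = 4 per group, as for all genes below). The siGOLM1-2 libraries held 44.6 to 53.4 CPM, slightly more than with siGOLM1-1 (log2 difference -0.30, SE 0.07, adjusted p = 0.00181). Fewer transcripts per cell and fewer cells that express a transcript cannot be told apart in such bulk samples.

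With siGOLM1-1, 4152 genes (23.7% of those tested) were called higher and 4181 (23.8%) lower than in the control at an adjusted p under 0.05, 47.5% in either direction, and the median log2 fold change over all genes was -0.01. A change of at least 1 on the log2 scale was reached by 1002 of the higher (5.72%) and 1068 of the lower genes (6.09%). The libraries of siGOLM1-1 and control did not overlap in 41% of genes tested, 20.6% with siGOLM1-1 above and 20.4% below. Between the siRNAs 54.4% of genes were called. A gene was taken as specific to siGOLM1-1 when it was called against the control and called in the same direction against siGOLM1-2. That held for 2575 genes higher (14.7%) and 2494 lower (14.2%). Among the higher ones, siGOLM1-2 left 1534 not called against control, moved 390 the same way to a smaller extent and moved 651 the opposite way. Among the lower ones these numbers were 1575, 324 and 595. Both comparisons contain the siGOLM1-1 libraries and are not independent. In 1973 of the specific higher genes and 1928 of the specific lower genes the 4 siGOLM1-1 libraries lay beyond all of the other 8. Over all genes they lay above them in 11.9% and below them in 11.6%. The rule for specific genes uses these same libraries and so favours such a separation, which is therefore no further support. For each list below, calls against control are to be read beside 23.7% and 23.8%, and specific calls beside 14.7% and 14.2%.

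**Figure D1:**
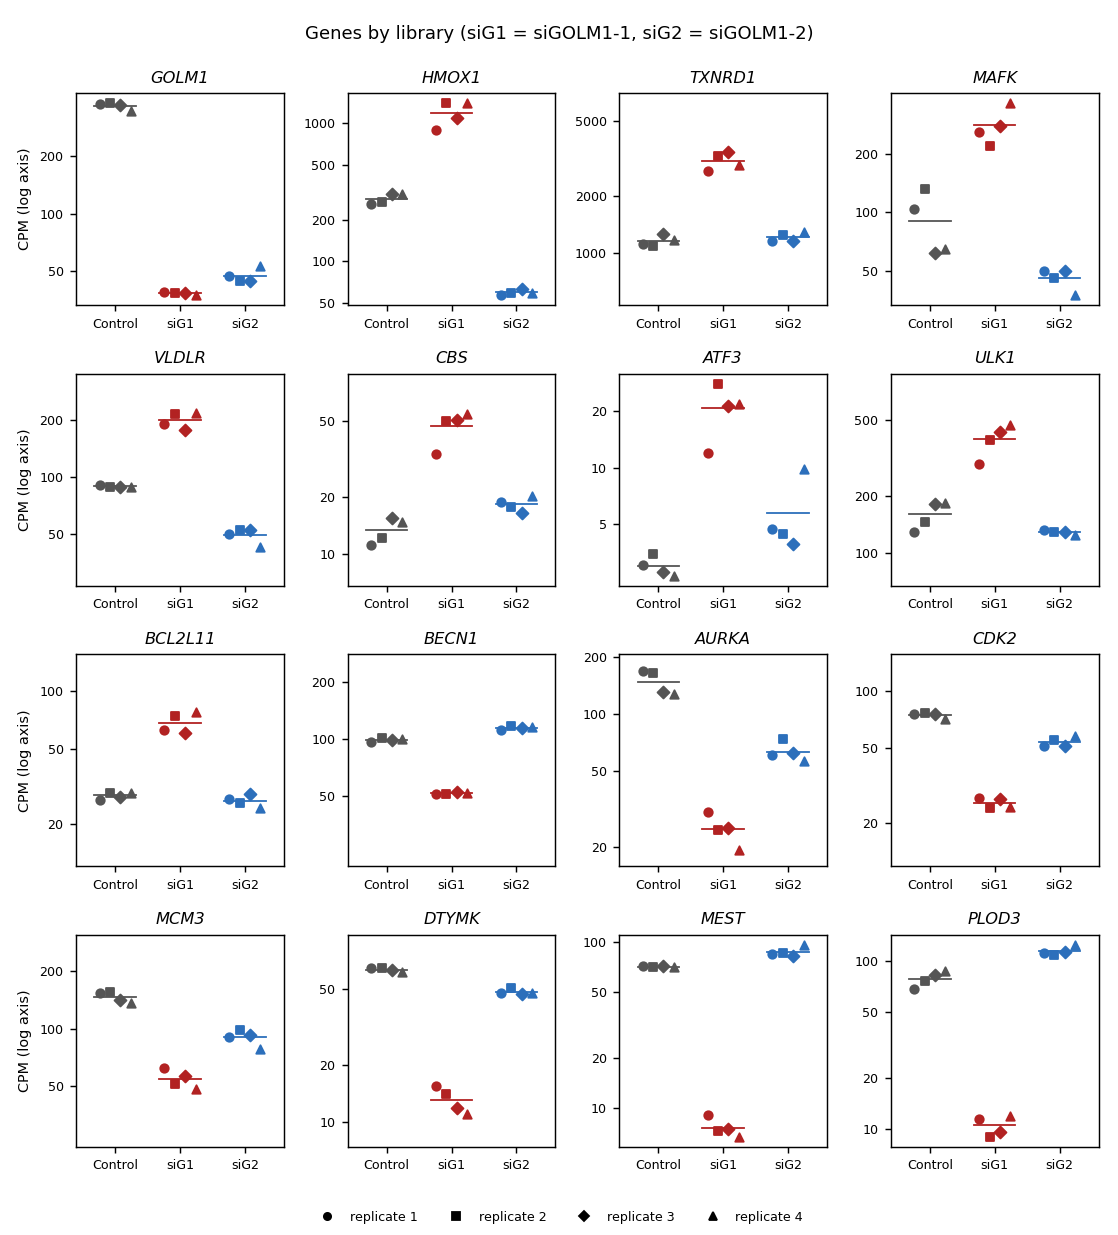
CPM on a log axis (vertical) of 16 genes in each library of the Control, siGOLM1-1 (siG1) and siGOLM1-2 (siG2) groups, with 4 libraries per group as symbols and the group mean as a line. GOLM1 fell with both siRNAs, whereas HMOX1, TXNRD1, MAFK, VLDLR, CBS, ULK1 and BCL2L11 were highest with siGOLM1-1 and BECN1, CDK2, DTYMK, MEST and PLOD3 were lowest there.

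Genes of the NRF2 programme rose with siGOLM1-1. NRF2 (NFE2L2) is held back by the adaptor KEAP1, pairs with small MAF proteins and competes with BACH1 at antioxidant response elements in front of genes for glutathione, thioredoxin, NADPH, heme and iron handling. Of 15 glutathione and thioredoxin genes tested, 10 were higher and 1 lower, with a median log2 fold change of 0.62, and 9 were specific to siGOLM1-1 in the upward direction. Of 22 genes for NADPH, quinone, heme and iron metabolism, 14 were higher and 3 lower (median 0.70), 10 of them specific and higher and 1 specific and lower. Against siGOLM1-2, where 27.9% of all genes were called higher and 26.5% lower, the 2 lists had 12 and 14 higher and 1 and 3 lower members.

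HMOX1, which encodes heme oxygenase 1 and breaks down heme, stood at 259, 269, 306 and 305 CPM in the control libraries and at 891, 1388, 1087 and 1399 CPM with siGOLM1-1. All 4 siGOLM1-1 libraries were above all controls (log2 change of 2.06 with SE 0.13, adjusted p = 4.10e-08). The siGOLM1-2 libraries lay on the other side of the control at 56.8 to 63.1 CPM, and the log2 difference between the siRNAs was 4.32, SE 0.14, adjusted p = 1.07e-10. FTL, the ferritin light chain of iron storage, rose from 4345, 4441, 4966 and 5141 CPM to 10322, 17366, 13194 and 16525 CPM (log2 change of 1.60 with SE 0.16, adjusted p = 2.36e-06), while siGOLM1-2 left it at 4318 to 5700.5 CPM. The ferritin heavy chain FTH1, named here after its values were seen, had a log2 fold change of 0.85 with siGOLM1-1 (adjusted p = 0.000318) and -0.43 with siGOLM1-2. The pentose phosphate enzyme gene TALDO1 (1.02) and the aldo-keto reductase gene AKR1C1 (1.04) also rose. AKR1B10, another NRF2-responsive reductase, fell (-0.43, adjusted p = 0.00108) and was the largest fall of that list.

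In the thioredoxin arm, TXNRD1, the cytosolic thioredoxin reductase, was at 1116, 1089, 1264 and 1174 CPM in the controls and 2706, 3249.6, 3422 and 2907 CPM with siGOLM1-1, again without overlap (log2 change of 1.40 with SE 0.09, adjusted p = 6.14e-08). Its substrate TXN (1.10), the sulfiredoxin SRXN1 (1.78) and the peroxiredoxin PRDX1 (0.71) rose with it. GCLM, the modifier subunit of the first enzyme of glutathione synthesis, rose from 157, 151, 117 and 115 CPM to 269, 320.4, 338 and 282 CPM (log2 change of 1.16 with SE 0.11, adjusted p = 1.45e-06), beside 0.33 for its catalytic partner GCLC. The cystine transporter SLC7A11 (1.10), glutathione reductase GSR (0.66) and the exporter ABCC1 (0.62) were higher too. MGST1, a membrane glutathione transferase, was the 1 member called lower (-0.32), and it was not called with control replicates 1 and 2 alone (-0.06, adjusted p = 0.573). The conjugate exporters ABCC2 and ABCC3 and the transferases GSTM3 and GSTA4 were not called, with log2 fold changes between -0.09 and 0.28.

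Transcripts of the regulators moved as well, with 6 of 8 higher and 1 lower, of which 4 rises and 1 fall were specific to siGOLM1-1. NFE2L2 (0.73) and KEAP1 (0.75) both rose, as did BACH1 (1.02) and the small MAF genes MAFF (2.33) and MAFG (0.42). BACH1 (-0.09) and MAFG (0.07) were not called between the siRNAs. MAFK was at 104, 132, 61.6 and 64.6 CPM in the controls and 260.3, 219, 278 and 366 CPM with siGOLM1-1 (log2 change of 1.64 with SE 0.23, adjusted p = 7.57e-05). It was below control with siGOLM1-2 at 37.4 to 50.2 CPM. CUL3, the ligase scaffold that KEAP1 recruits, was not called (-0.08), and the related factor NFE2L1 fell (-0.36).

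Promoter stretches of TXNRD1 and GCLM are shown because both genes rose and hold the core of the antioxidant response element. The stretches are from RefSeq on GRCh38.p14, at chr12:104215660-104215799, plus strand, for TXNRD1 and at chr1:93909436-93909484, minus strand, for GCLM, with each match to TGACNNNGC on either strand in capitals.
TXNRD1: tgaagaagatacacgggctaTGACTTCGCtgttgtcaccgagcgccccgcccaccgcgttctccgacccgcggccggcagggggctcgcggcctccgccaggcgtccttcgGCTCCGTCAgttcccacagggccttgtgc
GCLM: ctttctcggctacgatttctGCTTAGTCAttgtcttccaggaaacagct
The word occurs in 13.6% of all 27305 promoters of 300 bases in the table. Among the 10869 promoters found for genes tested the share was 15.03%. It was 15.65% for genes called higher and 14.51% for genes called lower against control. For genes specific to siGOLM1-1 it was 15.47% for the higher and 14.27% for the lower ones. These shares lie close together, and a link between the word and the rises was not tested. Promoters were found for 10 of the 15 glutathione and thioredoxin genes, under 80%, so no share is given for that list.

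The integrated stress response is the pathway in which kinases that sense amino acid shortage, misfolded protein, heme lack or double-stranded RNA phosphorylate eIF2 and so favour translation of ATF4, which then switches on amino acid and stress genes. Of its 26 genes tested, 20 rose and 2 fell with siGOLM1-1, with a median log2 fold change of 0.90. With siGOLM1-2, 7 were higher and 9 lower than control (21.8% and 23.2% of all genes), with a median of -0.02. In the direct comparison 18 were higher and 2 lower with siGOLM1-1, and 17 met the rule for specific genes upward and 1 downward.

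ATF3, a stress transcription factor, was at 3.04, 3.49, 2.79 and 2.66 CPM in the controls and 11.9, 28.1, 21.4 and 21.9 CPM with siGOLM1-1 (log2 change of 2.80 with SE 0.31, adjusted p = 1.02e-05). CBS, the first enzyme of transsulfuration from homocysteine towards cysteine, went from 11.1, 12.1, 15.5 and 14.8 CPM to 33.4, 50.2, 50.4 and 54.1 CPM (log2 change of 1.81 with SE 0.15, adjusted p = 5.04e-07). In both genes siGOLM1-1 replicate 1 was the lowest of its group and still above every control. VLDLR, a lipoprotein receptor gene that ATF4 can induce, was nearly constant in the controls at 90.2, 88.6, 88.9 and 88.7 CPM and reached 189, 214, 176 and 218 CPM with siGOLM1-1 (log2 change of 1.16 with SE 0.08, adjusted p = 1.51e-07). It was 42.8 to 52.4 CPM with siGOLM1-2, below every control library. SESN2, a sestrin that restrains mTORC1, rose with siGOLM1-1 (1.25) and was not called between the siRNAs (0.13), though it was without siGOLM1-2 replicate 4. PHGDH, the first enzyme of serine synthesis, ran against the list with a fall of similar size with each siRNA (-1.47 and -1.45).

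Further members, named after their values were seen, span the pathway. The transcription factor ATF4 itself had a log2 fold change of 0.78 (adjusted p = 0.000241), its partner DDIT3 (CHOP) 1.56, the glutathione-degrading CHAC1 1.75, the pseudokinase TRIB3 1.23, the eIF2 phosphatase subunit PPP1R15A 1.10 and the mitochondrial folate enzyme MTHFD2 0.99. Asparagine synthetase ASNS was at 0.43. All 7 were called against control, and all 7 were higher than with siGOLM1-2.

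The unfolded protein response of the endoplasmic reticulum moved less, with a median of 0.09. Of 23 members 9 were higher (39.1%, beside 23.7% of all genes) and 4 lower (17.4%, beside 23.8%). With control replicates 3 and 4 alone 5 were higher and 4 lower. DNAJB9, a co-chaperone that restrains IRE1, had the largest rise (0.89, adjusted p = 4.52e-05), and the lectin chaperone CANX (0.52) and the factor CREB3L2 (0.36) rose. HYOU1, the large Hsp70-like chaperone of the same compartment, fell from 171, 177, 188 and 184 CPM to 61.5, 80.5, 71.9 and 79.5 CPM (log2 change of -1.29 with SE 0.08, adjusted p = 4.13e-08), while the siGOLM1-2 libraries held 192 to 203 CPM.

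**Figure D2:**
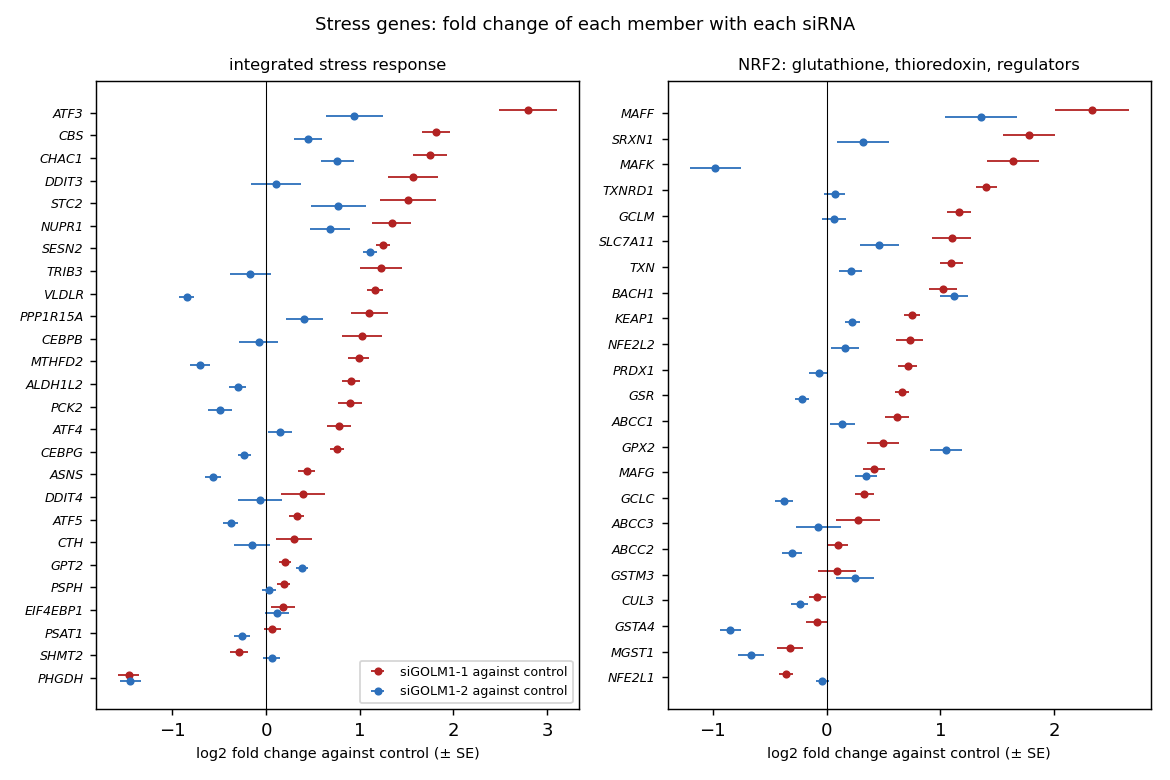
Log2 fold change against control (horizontal, bars are 1 SE, n = 4 per group) of the 26 integrated stress response genes (left) and of the 23 glutathione, thioredoxin and regulator genes of NRF2 (right), with siGOLM1-1 in red and siGOLM1-2 in blue. Most red points lie to the right of the blue point of the same gene, except for PHGDH, SHMT2, GPT2, GPX2, GSTM3, NFE2L1 and BACH1, named for their position in the plot.

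More autophagy genes rose than fell. The pathway starts with the ULK1 kinase complex and the BECN1 lipid kinase complex, and its vesicles are marked by LC3 and GABARAP proteins. Of 33 core genes 15 rose (45.5%) and 5 fell (15.2%), beside 23.7% and 23.8% of all genes, with a median of 0.23. Another 13 were not called, and 12 were specific and higher and 3 specific and lower. ULK1 went from 129, 145, 179.5 and 183 CPM to 294, 392, 429.6 and 472 CPM (log2 change of 1.32 with SE 0.14, adjusted p = 4.60e-06). WIPI1, which binds the phosphoinositide of nascent autophagosomes, went from 19.5, 18.5, 29.6 and 30.1 CPM to 42.9, 72.9, 60.4 and 75.1 CPM (log2 change of 1.36 with SE 0.19, adjusted p = 7.72e-05). Neither overlapped, and siGOLM1-2 held 124 to 131 and 23.5 to 28.6 CPM. MAP1LC3C, an LC3 form at 0.29 CPM in the control on average, reached 2.0 CPM (log2 change of 2.77 with SE 0.30, adjusted p = 5.30e-06). BECN1 moved against its pathway, from 96.4, 101, 99 and 99.8 CPM to 51.1, 51.6, 52.8 and 51.6 CPM (log2 change of -0.94 with SE 0.05, adjusted p = 1.50e-08), with 112 to 117 CPM under siGOLM1-2. The groups did not overlap.

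The BCL2 family sets the threshold for mitochondrial apoptosis, with BH3-only members that promote it, effectors that open the outer membrane and guardians that prevent this. Of 19 members 9 rose (47.4%) and 4 fell (21.1%), beside 23.7% and 23.8% of all genes. The median of 0.04 moved to 0.14 with control replicates 1 and 2 alone and 0.62 with replicates 3 and 4 alone. Of the members 8 were specific and higher and 4 specific and lower. The BH3-only genes BBC3 (1.78), HRK (1.75), BIK (1.71), BMF (1.50), BCL2L11 (1.27), PMAIP1 (1.21) and BID (0.58) rose, and BAD fell (-0.36). HRK (0.16 to 0.78 CPM in the control, 0.67 to 2.18 CPM with siGOLM1-1) and BIK (0.22 to 0.57 and 0.54 to 1.9 CPM) were near the floor. In HRK, BIK and BMF the libraries of the 2 groups overlapped. BIK was at 1.05 to 2.47 CPM with siGOLM1-2 and was not called between the siRNAs (-0.24). BCL2L11, which encodes BIM, was at 27, 29.3, 28 and 29.3 CPM in the controls and 62.4, 73.9, 60.7 and 77.7 CPM with siGOLM1-1 (log2 change of 1.27 with SE 0.09, adjusted p = 1.15e-07), against 24.3 to 28.9 CPM with siGOLM1-2. BBC3, which encodes the p53 target PUMA, rose from 16.1, 17.7, 14.7 and 16.4 CPM to 48.5, 57.4, 55.6 and 61.3 CPM (log2 change of 1.78 with SE 0.10, adjusted p = 1.20e-08) and reached 33.6 to 42 CPM with siGOLM1-2. Of the effectors, BAX rose (1.03) and BAK1 fell (-0.67). Of the guardians, MCL1 rose from 176, 185, 231 and 224 CPM to 357, 355, 393 and 345 CPM (0.83, adjusted p = 5.53e-06), BCL2L2 fell (-0.84) and BCL2L1 was not called (-0.27, adjusted p = 0.0551), though it was with control replicates 3 and 4 alone (-0.45, adjusted p = 0.00185). The more distant member BCL2L13 also fell (-0.56). With control replicates 1 and 2 alone BAD was at -0.27 (adjusted p = 0.13).

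Genes of DNA replication were lower. Before S phase, ORC, CDC6 and CDT1 load the MCM2 to MCM7 helicase ring on DNA, and CDC45 and the GINS complex then activate it. 18 of 19 helicase and licensing genes fell and 0 rose (median -0.74). 8 of them were specific to siGOLM1-1, the median against siGOLM1-2 was -0.20, and siGOLM1-2 itself lowered 16 (median -0.67). MCM3 fell most, from 154, 155, 142 and 137 CPM to 62.1, 51, 56.3 and 47.9 CPM (log2 change of -1.44 with SE 0.09, adjusted p = 6.01e-08), and lay at 78.2 to 98.9 CPM with siGOLM1-2. MCM10 (-1.26), CDC6 (-1.22), GINS2 (-1.19) and MCM6 (-1.06) followed. DBF4, the activator of the CDC7 kinase, was the 1 member not called (0.15). GINS4 (-0.59, adjusted p = 0.0436) was not called with control replicates 3 and 4 alone (-0.10, adjusted p = 0.707). At the fork, 22 of 28 genes fell and 0 rose (median -0.65), while siGOLM1-2 lowered 24 and raised 1 (median -0.64). Only 5 fork genes were specific to siGOLM1-1, and the median between the siRNAs was -0.08. For siGOLM1-1 the falls included the histone chaperone subunits CHAF1B (-1.31) and CHAF1A (-0.90), the clamp loader subunit RFC2 (-1.19) and the polymerase POLD1 (-1.04), of which CHAF1B was not called between the siRNAs (-0.20).

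Promoter words for E2F factors, which drive S phase genes, were common in this group. Promoters were found for 16 of the 19 helicase and licensing genes, and 9 (56.25%) hold GCGGGAAA, GGCGGGAA or TTTGGCGC on either strand, of which the first 2 words can overlap, against 4.62% of all promoters and 7.08% of the 10869 promoters found for genes tested. At the fork 11 of 24 promoters found do (45.8%). Over all genes the words differed less. GCGGGAAA was in 2.48% of promoters of genes tested, 3.79% of those called lower and 3.72% of specific lower ones. For GGCGGGAA these shares were 4.80%, 6.20% and 6.19%, and for TTTGGCGC 1.04%, 1.56% and 1.06%. These shares are descriptions and were not tested. The stretches below, from RefSeq on GRCh38.p14 with the matches in capitals, belong to 4 of the 5 members with the largest falls, MCM3 (chr6:52284739-52284936, minus strand), GINS2 (chr16:85688958-85689006, minus strand), MCM6 (chr2:135876506-135876615, minus strand) and CDC6 (chr17:40287872-40287907, plus strand).
MCM3: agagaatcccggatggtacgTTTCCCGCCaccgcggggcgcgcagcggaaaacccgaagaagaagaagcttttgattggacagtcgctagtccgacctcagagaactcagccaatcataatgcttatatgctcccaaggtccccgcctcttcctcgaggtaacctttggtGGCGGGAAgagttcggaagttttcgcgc
GINS2: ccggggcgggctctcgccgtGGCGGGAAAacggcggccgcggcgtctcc
MCM6: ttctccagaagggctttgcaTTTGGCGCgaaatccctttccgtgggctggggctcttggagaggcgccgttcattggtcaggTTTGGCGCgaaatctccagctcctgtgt
CDC6: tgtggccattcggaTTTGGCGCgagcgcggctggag
In MCM3 the first block of capitals lies on the opposite strand to the second. In MCM6 the same word occurs at a pair of places. No stretch is shown for MCM10, the remaining member among the largest falls.

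Supply of deoxynucleotides followed the same direction, with 12 of 16 genes lower and 2 higher. DTYMK, the kinase that makes thymidine diphosphate, stood out with 64.1, 64.8, 62.8 and 61.1 CPM in the controls and 15.4, 14, 11.8 and 11 CPM with siGOLM1-1 (log2 change of -2.27 with SE 0.10, adjusted p = 1.31e-09). The siGOLM1-2 libraries held 46.9 to 50.6 CPM, much nearer to the control than to siGOLM1-1 (-1.88, SE 0.10, adjusted p = 3.66e-09). The large and small ribonucleotide reductase subunits RRM1 (-0.81) and RRM2 (-0.64) fell, and RRM2B, the p53-induced subunit, rose (0.60), but not with control replicates 1 and 2 alone (0.36, adjusted p = 0.0744). Between the siRNAs RRM1 (0.07) and RRM2B (0.20) were not called, and RRM2 was higher with siGOLM1-1 (0.83).

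In the list of G1 regulators 12 of 24 genes fell and 5 rose (median -0.22). siGOLM1-2 lowered 14 and raised 1 (median -0.44). In the direct comparison 13 were higher and 7 lower with siGOLM1-1 (median 0.40), so the falls named next do not stand for the list there. CDK2, the kinase of the G1 to S transition, fell from 75.7, 76.5, 74.9 and 70.8 CPM to 27.2, 24.2, 26.8 and 24.3 CPM (log2 change of -1.54 with SE 0.07, adjusted p = 2.31e-09). It was between these groups with siGOLM1-2, at 51 to 57.6 CPM. Its inhibitors CDKN1A (0.93, adjusted p = 3.86e-07) and CDKN1C (1.94, adjusted p = 0.000456) rose, the first from 301, 296, 263 and 258 CPM to 591, 529, 505 and 510.04 CPM. CDKN1C was 2.99 with control replicates 1 and 2 alone and 1.36 with replicates 3 and 4 alone. E2F1 (-1.04) and E2F2 (-1.61) fell, and both were lower than with siGOLM1-2 (-0.73 and -0.99).

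Mitotic genes did not all follow. 15 of 22 genes for mitotic kinases and the spindle checkpoint fell and 0 rose, but siGOLM1-2 lowered 21, and in the direct comparison 12 were higher and 4 lower than with siGOLM1-2. The 4 specific falls were AURKA, the kinase of spindle poles, its activator TPX2, the checkpoint kinase TTK and the CDK1 inhibitor PKMYT1. For TTK the call against siGOLM1-2 (-0.60) was lost when any 1 of siGOLM1-1 replicates 2 to 4 or siGOLM1-2 replicates 1 to 3 was left out. AURKA went from 168, 163, 131 and 127 CPM to 30.4, 24.6, 25.1 and 19.3 CPM (log2 change of -2.56 with SE 0.14, adjusted p = 1.54e-08), with 56.6 to 74 CPM under siGOLM1-2. TPX2 went from 237, 236, 202 and 198 CPM to 77.4, 53.1, 61.3 and 47.9 CPM (log2 change of -1.86 with SE 0.14, adjusted p = 2.25e-07), with 95.5 to 129 CPM under siGOLM1-2. In both genes the 3 groups did not overlap. Of 26 kinetochore, motor and cytokinesis genes 11 fell and 0 rose, with CENPM lowest (-1.46). siGOLM1-2 lowered 24 of them (median -0.88), and in the direct comparison 12 were higher and 1 lower with siGOLM1-1. siGOLM1-1 replicate 1 lay near the controls for this list, and without it 21 of 26 fell and the median moved from -0.53 to -0.72. For the mitotic kinases it moved from -0.55 to -0.70, with 18 lower. With control replicates 3 and 4 alone 7 mitotic kinase genes and 6 kinetochore genes were called lower, with medians of -0.36 and -0.15.

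**Figure D3:**
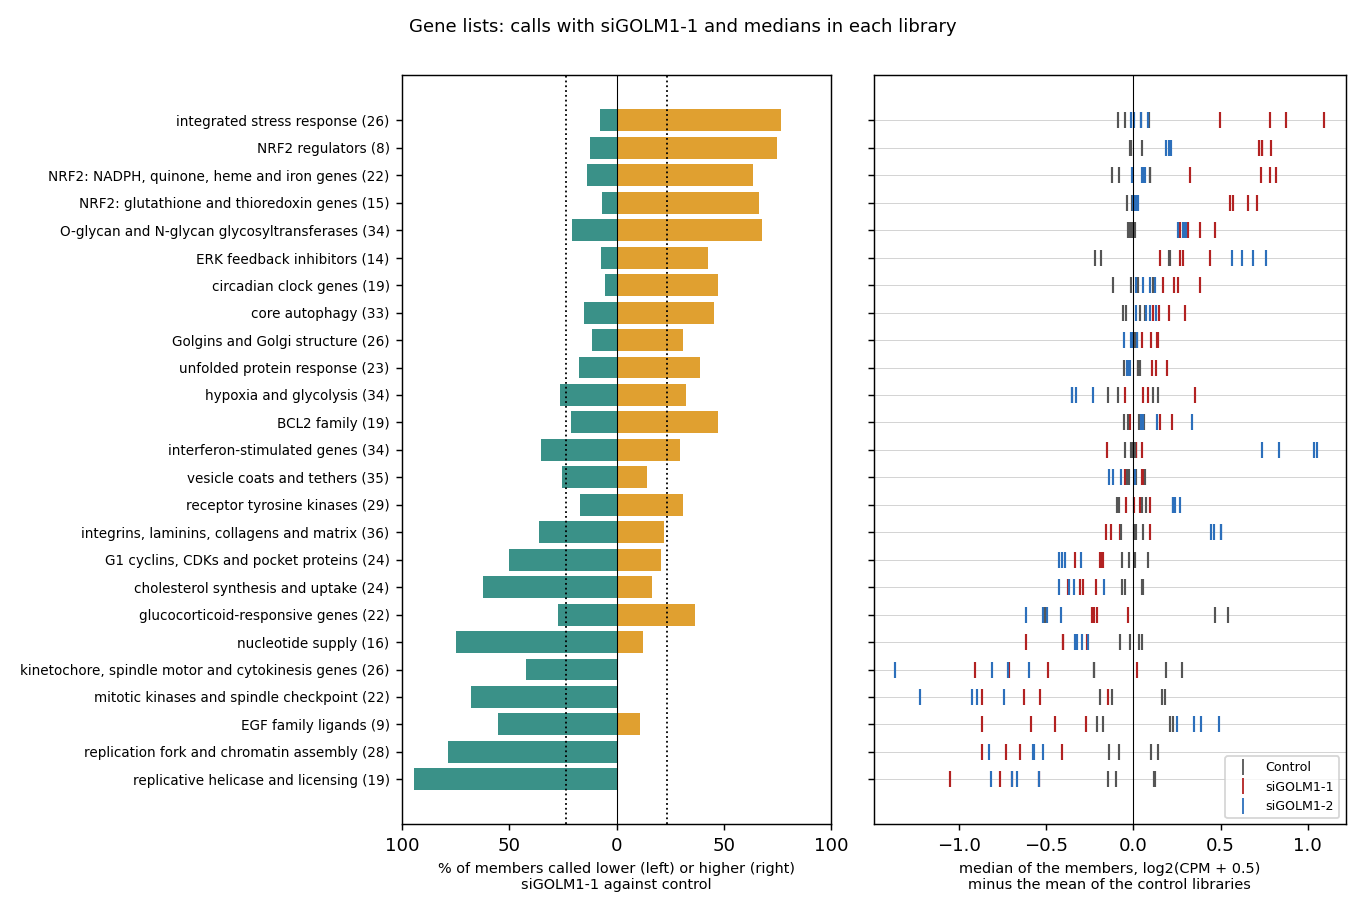
Left, percent of the members of each gene list called higher (orange) or lower (teal) with siGOLM1-1 against control, with dotted lines at the 23.7% and 23.8% of all genes called in each direction and the number tested in brackets. Right, the median of the members in each library on the log2(CPM + 0.5) scale relative to the mean of the control libraries, where the 4 siGOLM1-1 libraries lie above all others for the stress response list and below the controls for the helicase and fork lists.

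Several genes of other functions separated siGOLM1-1 from both other groups. Separation from the control was a condition of the rules that named them and so is no further support. The rules for specific and opposite genes also asked for separation from siGOLM1-2. NPR1, the receptor for atrial natriuretic peptide, was at 3.82, 3.46, 3.81 and 3.91 CPM in the controls and 19, 49, 45 and 52.5 CPM with siGOLM1-1 (log2 change of 3.46 with SE 0.27, adjusted p = 4.58e-07), and at 4.17 to 6.16 CPM with siGOLM1-2. C10orf10, also known as DEPP1, an autophagy-related FOXO target, was at 0.50, 0.313, 0.678 and 0.866 CPM and 2.94, 11.8, 12.8 and 12.9 CPM (log2 change of 4.08 with SE 0.44, adjusted p = 7.42e-06). CEACAM7, an adhesion molecule whose reads may be shared with close relatives, was at 0.10, 0.289, 0.614 and 0.403 CPM and 4.08, 6.59, 4.44 and 6.99 CPM (log2 change of 3.97 with SE 0.43, adjusted p = 8.48e-06). siGOLM1-1 replicate 1 was the lowest of its group in all 3. COX6B2, a cytochrome c oxidase subunit known from testis (3.03), TMEM130 (2.93) and the chaperone CRYAB (2.21) were also specific rises. Transferrin, TF (1.49), the activin antagonist FSTL3 (0.91), KLB, the coreceptor of endocrine FGFs (1.84), the matrix protein ABI3BP (1.48) and the endothelin EDN2 (1.59) rose with siGOLM1-1 and fell with siGOLM1-2, with differences between the siRNAs of 3.45, 3.13, 2.98, 2.64 and 2.59.

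Among the falls, MEST, an imprinted hydrolase gene, was at 71.6, 70.1, 71 and 70.4 CPM in the controls and 9.02, 7.25, 7.44 and 6.67 CPM with siGOLM1-1 (log2 change of -3.22 with SE 0.09, adjusted p = 5.08e-11). PLOD3, a lysyl hydroxylase and glycosyltransferase of collagen, was at 68.7, 76.4, 83 and 87 CPM and 11.5, 8.94, 9.64 and 11.9 CPM (log2 change of -2.91 with SE 0.11, adjusted p = 5.09e-10). MYCBP, a MYC-binding protein, was at 18.5, 16.8, 15.5 and 15 CPM and 2.56, 2.32, 3.12 and 1.52 CPM (log2 change of -2.78 with SE 0.16, adjusted p = 2.10e-08). With siGOLM1-2 these 3 genes were at 82.1 to 95.8, 109 to 125 and 15.2 to 15.8 CPM, and MEST (0.29) and PLOD3 (0.54) were called higher than control there. NPNT, a ligand of the integrin alpha 8 beta 1, was at 4.32, 4.62, 5.93 and 6.2 CPM and 0.754, 0.565, 0.709 and 0.572 CPM (log2 change of -3.01 with SE 0.17, adjusted p = 1.54e-08), with 7.77 to 10.1 CPM under siGOLM1-2. TMEM164 was at 91.6, 94, 159 and 155 CPM and 17.9, 16.6, 19.2 and 21.4 CPM (log2 change of -2.73 with SE 0.18, adjusted p = 9.25e-08), and again the siGOLM1-1 libraries lay below all others. SIDT1, a membrane protein of the family linked to RNA uptake (-2.14), the protein C inhibitor SERPINA5 (-1.92), the lipid amidase FAAH2 (-1.97) and the angiopoietin ANGPT1 (-3.03) were further specific falls. DMBT1, a secreted scavenger receptor protein, was at 0 to 0.132 CPM with siGOLM1-1 and at 25 to 33.1 CPM with siGOLM1-2, against 0.148 to 0.553 CPM in the control, and its fall against control was not called with control replicates 3 and 4 alone (-1.60, adjusted p = 0.118).

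Glycosylation enzymes of the Golgi, the organelle of GOLM1, changed in both directions. Of 34 glycosyltransferases and mannosidases 23 rose and 7 fell (median 0.30), 15 specific and higher and 6 specific and lower. With siGOLM1-2 17 rose and 4 fell, with a similar median of 0.31. In the direct comparison 16 were higher and 10 lower with siGOLM1-1 (median 0.19). GALNT1, which starts mucin-type O-glycans, rose from 193, 187, 212 and 193 CPM to 439.6, 435, 442 and 368 CPM (log2 change of 1.10 with SE 0.07, adjusted p = 8.56e-08). GALNT10 of the same family fell from 362, 347, 401 and 393 CPM to 155, 179.8, 165 and 175 CPM (log2 change of -1.16 with SE 0.07, adjusted p = 4.10e-08). MAN2A2, one of the alpha-mannosidases II of N-glycan trimming, fell from 82.5, 90.3, 88.6 and 88.1 CPM to 44.2, 35.1, 44 and 45.1 CPM (log2 change of -1.05 with SE 0.09, adjusted p = 7.28e-07), whereas its paralog MAN2A1, named after its values were seen, had a log2 fold change of 0.97 (adjusted p = 4.04e-05). With siGOLM1-2 these 3 genes lay at 243 to 267, 340.2 to 373 and 82.5 to 102 CPM. GALNT12 (1.21) and the core 2 enzyme GCNT4 (2.10) rose and B3GNT3 fell (-1.18), and B3GNT3 was -0.76 with control replicates 1 and 2 alone and -1.50 with replicates 3 and 4 alone.

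Of 26 golgins and Golgi membrane genes 8 rose and 3 fell, GOLM1 included, with a median of 0.12, beside the 23.7% and 23.8% of all genes. With control replicates 3 and 4 alone 5 rose and 2 fell. The cargo receptor TMED10 had the largest rise (0.57) and was below control with siGOLM1-2 (-0.94). FURIN (0.44), the protease of the trans-Golgi network that can release GOLM1 from the membrane, and the golgin GOLGA3 (0.33) rose by similar amounts with both siRNAs (0.44 and 0.27 with siGOLM1-2). In vesicle coats and tethers 5 of 35 rose and 9 fell, close to the share of all genes called lower. The falls included the COPI subunit COPZ1 (-0.65), the tether subunit COG2 (-0.65) and the COPII subunits SEC24B (-0.65) and SEC24C (-0.63), and the adaptor AP1S1 rose most (0.54).

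Growth factor genes separated the siRNAs. Ligands of the EGF family bind ERBB receptors, and of 9 tested 1 was higher and 5 were lower than control with siGOLM1-1, while 8 were lower and 0 higher than with siGOLM1-2. With control replicates 3 and 4 alone 3 were lower than control. TGFA was at 14.1, 14.3, 11.3 and 9.46 CPM in the controls and 4.11, 5.42, 6.89 and 4.17 CPM with siGOLM1-1 (log2 change of -1.26 with SE 0.18, adjusted p = 8.93e-05). It rose to 33.2 to 47.7 CPM with siGOLM1-2. NRG4 was at 1.94, 2.33, 2.58 and 2.3 CPM and 0.498, 0.452, 0.385 and 0.487 CPM (log2 change of -2.32 with SE 0.17, adjusted p = 2.18e-07). NRG1 (-0.63, adjusted p = 0.0103) and EREG (-1.11, adjusted p = 0.0406) were called lower but not with control replicates 3 and 4 alone (-0.20, adjusted p = 0.227, and -0.20, adjusted p = 0.708). NRG2 also fell (-1.03). HBEGF was the 1 ligand that rose (1.34), and BTC, AREG and EGF were not called, although EGF was with control replicates 1 and 2 alone (-0.96, adjusted p = 0.00359). Between the siRNAs HBEGF was not called (0.10), except without siGOLM1-2 replicate 4.

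Of 29 receptor tyrosine kinases 9 rose (31.0%) and 5 fell (17.2%), beside 23.7% and 23.8% of all genes. MET, the receptor of hepatocyte growth factor, fell from 298, 276, 252 and 245 CPM to 98.8, 99, 109 and 82.7 CPM (log2 change of -1.46 with SE 0.09, adjusted p = 5.66e-08) and lay at 471 to 542 CPM with siGOLM1-2, above every control. RET, the receptor of glial-derived neurotrophic factors, rose from 0.60, 0.721, 0.402 and 0.463 CPM to 3.81, 2.47, 3.06 and 2.73 CPM (log2 change of 2.47 with SE 0.22, adjusted p = 1.14e-06). Among 14 inhibitors that ERK signalling induces 6 rose (42.9%) and 1 fell (7.14%). siGOLM1-2 raised 10 and lowered 2 (median 0.74, beside 0.27 with siGOLM1-1). In the direct comparison 8 were lower and 5, DUSP5 among them, higher with siGOLM1-1 (median -0.42). DUSP5, a nuclear ERK phosphatase, was at 41.1, 40.9, 25.3 and 22.7 CPM in the controls and 219, 318, 369 and 288 CPM with siGOLM1-1 (log2 change of 3.20 with SE 0.26, adjusted p = 6.58e-07), and at 69.7 to 126 CPM with siGOLM1-2.

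Matrix and interferon genes were lower than with siGOLM1-2 rather than uniformly below the control. Of 36 integrin, laminin, collagen and other matrix genes 8 rose (22.2%) and 13 fell (36.1%) against control, beside 23.7% and 23.8% of all genes. By contrast, siGOLM1-2 raised 19 and lowered 6, and in the direct comparison 19 were lower and 5 higher with siGOLM1-1. With control replicates 1 and 2 alone 7 were higher and 6 lower. TNC, the matrix protein tenascin C, was at 10.5, 8.18, 12.5 and 13.8 CPM in the controls and 2.32, 2.65, 1.92 and 2.39 CPM with siGOLM1-1 (log2 change of -2.27 with SE 0.17, adjusted p = 1.82e-07). With siGOLM1-2 it was at 48 to 67.3 CPM (-4.58, SE 0.18, adjusted p = 3.36e-10 between the siRNAs). The integrin subunits ITGB3 (2.19), ITGB1 (0.71) and ITGB5 (0.49) rose, of which ITGB1 was not called between the siRNAs (0.13). Of 34 interferon-stimulated genes 10 rose (29.4%) and 12 fell (35.3%) against control, beside 23.7% and 23.8% of all genes, and the median was 0.04. siGOLM1-2 raised 28 and lowered 1 (median 1.05). In the direct comparison 28 were lower and 1 higher than with siGOLM1-2 (median -1.09), and 12 falls and 0 rises were specific to siGOLM1-1. IFIT1, which binds uncapped viral RNA, was at 8.13, 8.78, 18.2 and 18.9 CPM in the controls and 2.84, 3.24, 2.67 and 2.65 CPM with siGOLM1-1 (log2 change of -2.24 with SE 0.30, adjusted p = 5.31e-05), against 13.5 to 25.3 CPM with siGOLM1-2. IFIT5 (-0.69), HERC6 (-0.63) and IFI44L (-4.51) fell and IFIT3 rose (0.86). IFI44L was near the floor, at 0.22 to 1.27 CPM in the control and 0.02 to 0.04 CPM with siGOLM1-1.

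Cholesterol genes were mostly lower, 15 of 24 falling and 4 rising (median -0.29), and siGOLM1-2 lowered 13 and raised 1 (median -0.31). The synthesis enzymes HMGCS1 (-0.97), EBP (-0.86), DHCR7 (-0.76) and HSD17B7 (-0.74) fell, with differences from siGOLM1-2 of 0.01, -0.41, 0.33 and -0.39, whereas INSIG1, the sterol sensor that retains SREBP in the endoplasmic reticulum, rose (1.33, adjusted p = 4.78e-06). The 4 members that rose were all specific to siGOLM1-1. In hypoxia and glycolysis 11 of 34 rose (32.4%) and 9 fell (26.5%) against control, beside 23.7% and 23.8% of all genes. The balance was 13 and 6 for control replicates 1 and 2 alone and 9 and 12 for replicates 3 and 4 alone. siGOLM1-2 lowered 19 and raised 3 (median -0.31), and in the direct comparison 19 were higher and 3 lower with siGOLM1-1. The glucose transporter SLC2A1 (0.74), the demethylase KDM3A (0.61) and the phosphofructokinase PFKL (0.50) rose and the carbonic anhydrase CA9 fell (-1.44). NDRG1 (1.42) was 2.42 with control replicates 1 and 2 alone and 0.85 with replicates 3 and 4 alone.

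Genes that respond to glucocorticoids could not be given a direction. FKBP5, a chaperone partner and sensitive target of the glucocorticoid receptor, was at 22.8, 22.6, 221 and 225 CPM in control replicates 1 to 4 and at 17.7, 17, 19.1 and 14.9 CPM with siGOLM1-1. PER1, a clock gene with a glucocorticoid response element, was at 10.4, 11.8, 105 and 111 CPM and 16.2, 19.2, 21.9 and 23.3 CPM. SCNN1A, a sodium channel subunit named after its values were seen, was at 12.2, 13.8, 203 and 215 CPM and 10.8, 14.2, 16.6 and 17 CPM. In all 3 genes control replicates 3 and 4 were far above both control replicates 1 and 2 and every siGOLM1-1 library. The log2 fold change of FKBP5 was -0.40 with control replicates 1 and 2 alone and -3.69 with replicates 3 and 4 alone. PER1 was 0.86 (adjusted p = 0.000863) and -2.41, and SCNN1A 0.17 and -3.83. For the whole list of 22 the median was -0.32, with 8 higher and 6 lower. It was 0.59 with the first control pair (12 higher, 4 lower) and -0.64 with the second (6 higher, 12 lower). With siGOLM1-2, against the same 4 control libraries, 6 were higher and 10 lower (median -0.76). FKBP5 was at 11.4 to 13.2 CPM there.

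Some members kept a direction with each pair. CRISPLD2 (3.30 and 3.81), IGFBP1 (1.92 and 2.25) and the kinase SGK1 (0.72 and 1.20) rose, and METTL7A fell (-3.28 and -5.67). TFCP2L1 fell by 1.53 with the first pair and by 3.47 with the second on the log2 scale. Between the siRNAs CRISPLD2 (0.86), TFCP2L1 (-0.80), FKBP5 (0.48), PER1 (1.42) and SCNN1A (0.56) were not called. Each of these was called under some of the alternatives listed below. IGFBP1 (1.09) and SGK1 (0.56) were higher and METTL7A (-3.19) was lower with siGOLM1-1 than with siGOLM1-2. Against control, siGOLM1-2 also raised CRISPLD2 (2.67) and lowered TFCP2L1 (-2.01). Of 19 clock genes 9 rose, 6 of them specific to siGOLM1-1, and 1 fell, or 4 with control replicates 3 and 4 alone. The output factors TEF (0.99) and DBP (0.89) and the nuclear receptor gene NR1D2 (0.99) rose and HLF fell (-1.39, and -0.52 with control replicates 1 and 2 alone, adjusted p = 0.148).

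The choice of control pair moved the fold change of other called genes named above by over 1.5 times without a change of direction or call. With control replicates 1 and 2 alone and then with replicates 3 and 4 alone, the log2 fold changes of the rises were as follows for ABI3BP (2.09 and 1.07), CEACAM7 (4.86 and 3.45), CRYAB (3.04 and 1.69), GCNT4 (1.60 and 2.87), HRK (2.42 and 1.32) and TF (2.11 and 1.07). For the falls IFI44L (-3.23 and -5.16) and IFIT1 (-1.56 and -2.69) the values are in the same order.

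**Figure D4:**
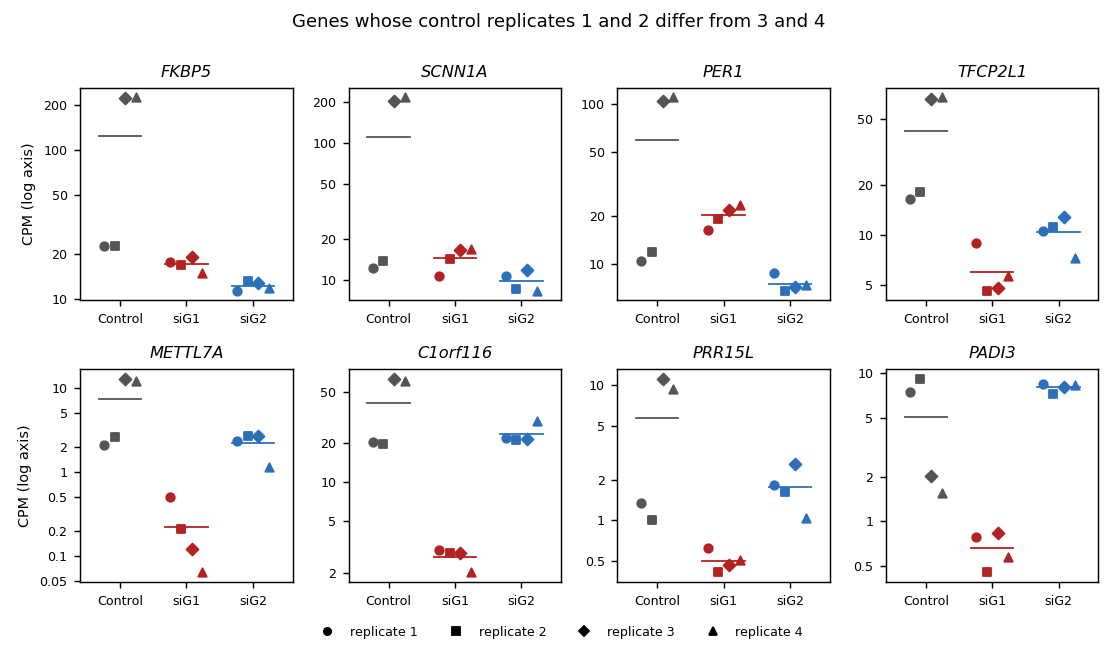
CPM on a log axis (vertical) of 8 genes in each library, with symbols for replicates 1 to 4 and lines for group means. Control replicates 3 and 4 lie together and apart from control replicates 1 and 2, above them in 7 genes and below them in PADI3.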

How the data were processed

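RNA was sequenced from 12 libraries of A549 cells, 4 per group. The deposited values are whole-number counts per gene, and the submitters' processing notes name bcl2fastq 2.20, STAR 2.7.3, hg19 and DESeq2 1.24.0. The read counter, annotation release and strand setting are not given in the sources used here, so reads of overlapping genes may be shared.

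Of 57773 genes in the table, 17532 passed edgeR's filterByExpr. All 3 groups were fitted together with TMM scaling and edgeR's robust quasi-likelihood test (edgeR 4.0.16, R 4.3.3, 9 residual degrees of freedom), and p-values were adjusted over all genes tested by the Benjamini-Hochberg method, with calls at 0.05. CPM values were computed from the counts with TMM-scaled library sizes. The scripts were tested on simulated data. Nothing in the labels ties same-numbered libraries together, and the deviations of same-numbered libraries correlated from -0.20 to 0.35, so the numbers were not used as pairs. These correlations cannot show whether libraries shared a batch. Precision is set by 4 libraries per group.

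The genes named are GOLM1, the 15 largest called rises and falls with at least 5 CPM and no overlap with the control, the 15 largest specific differences from siGOLM1-2 in each direction, the 10 largest in each direction among genes moved oppositely by the siRNAs, the 4 members with the smallest p and the largest called rise and fall of each list, and any member of a list of up to 20. Of the 173 genes named, 12 fall outside this rule and were named after their values were seen. The members and lists were chosen with earlier results of these data known. Promoters, from RefSeq on GRCh38.p14, span 250 bases before to 50 after the start and were found for 62.0% of the genes tested. Alternatives were other scalings and filters, DESeq2 1.42.0, a replicate block, each control pair alone and leaving out each library.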

Additional observations from a re-analysis of the deposited data

Results flagged for a closer look

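Among 140 groups of 4 libraries checked, for the genes printed by library and the medians of the lists, 10 held a library that stood apart from the other 3 by Dixon's criterion, and chance alone gives about 5%. In siGOLM1-1 replicate 1 CBS was low at 33.4 CPM, NPR1 at 19 CPM and C10orf10 at 2.94 CPM. Each was still above every control library, which the naming rule required of NPR1 and C10orf10. In siGOLM1-1 replicate 4 GOLM1 was at 37.5 CPM and GALNT1 at 368 CPM, both the lowest of their group, and in replicate 2 MAN2A2 was lowest at 35.1 CPM. VLDLR was highest in control replicate 1 at 90.2 CPM, in a group that hardly varied.

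For whole lists on the log2 scale relative to the control mean, the median of the G1 regulators was -0.33 in siGOLM1-1 replicate 4, that of the glucocorticoid-responsive genes was -0.029 in siGOLM1-1 replicate 3, and that of the NRF2 regulators was 0.048 in control replicate 2.

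The siRNAs also moved genes in opposite directions from the shared control. In the direct comparison, 651 genes above control with siGOLM1-1 and below it with siGOLM1-2 were called higher with siGOLM1-1, and 595 genes with the reverse pattern were called lower. Both siRNAs were compared with the same 4 control libraries.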

How the results depend on the processing

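The 4 counts of calls stayed within 1.5 times of their values under every alternative run, from 3606 to 4403 genes higher and 3570 to 4772 lower than control, and from 1901 to 2735 specific and higher and 2180 to 3162 specific and lower. With a replicate block, although the numbers are not known to pair the samples, 4182 genes were higher and 4207 lower. With library totals in place of TMM the share of calls that were higher fell from 49.8% to 43.0% and the median of all genes against siGOLM1-2 moved from 0.01 to -0.12. Under that scaling the medians against siGOLM1-2 changed sign for the Golgins (-0.087), the vesicle coats (-0.077) and the clock genes (-0.025). Against control, list medians changed sign by more than the spread between libraries under each control pair. With control replicates 3 and 4 alone these were the receptor tyrosine kinases (0.11) and the epithelial markers (-0.12). With control replicates 1 and 2 alone they were the glucocorticoid-responsive genes (0.59) and the other cell type markers (-0.046). The genes PER1 (0.86) and SCNN1A (0.17, not called) also changed sign with control replicates 1 and 2 alone, without a comparison to that spread. Leaving out 1 library at a time moved the receptor tyrosine kinases from -0.034 to 0.063, the latter without control replicate 2, and leaving out siGOLM1-1 replicate 4 turned the integrin and matrix list (0.020). Medians near 0 also changed sign by less than that spread, among them hypoxia and glycolysis (-0.045) and the vesicle coats (-0.018) with control replicates 3 and 4 alone. The cause was not tested. Calls against control were lost under 8 alternatives for EREG and GINS4 and 7 for MGST1. Calls against siGOLM1-2 were lost under 9 for DBF4 and 7 each for TTK, MCM10, HRK and AP1S1, and with them the specific status of TTK, MCM10, HRK and AP1S1.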
